A study of Mus musculus with 2 samples.

Results

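The nuclear-encoded respiratory chain genes were taken as every protein-coding gene of the GENCODE M21 annotation whose symbol begins with Nduf, Uqcr, Cox4 to Cox8 or Atp5, or is Sdha, Sdhb, Sdhc or Sdhd. This choice by name gave 93 genes of 21911, and the naming rule itself uses no measured value. Their chromatin was read from ChIP-seq for histone H3 trimethylated at lysine 36 (H3K36me3) in the E14TG2a.4 line of mouse embryonic stem cells, which is male, of strain 129/Ola and labelled embryonic with an age of 3.5 days. The 2 biological replicates form 1 untreated group of a single cell line, so no conditions could be compared. Each value is the covered share, the percentage of bases of the annotated gene body that lie in a replicate's own peaks. Genes with 10% or more of the body covered in both replicates are called marked, and positions are on mouse build mm10.

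The respiratory chain of the inner mitochondrial membrane passes electrons from NADH (complex I) and succinate (complex II) through complex III and cytochrome c to oxygen at complex IV, and complex V uses the proton gradient that results to make ATP. A few subunits are encoded in mitochondrial DNA and the others in the nucleus. Several complex IV subunits exist as a ubiquitous form and a form found mainly in heart and skeletal muscle, lung or testis, made from separate genes. H3K36me3 is laid down by SETD2, which travels with elongating RNA polymerase II, and is known as a mark of transcribed gene bodies.

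The sequences at the starts of 3 isoform pairs are shown first, because each pair encodes alternative forms of 1 subunit and the promoters differ in composition. Each window comes from RefSeq on GRCm38.p6 and runs 5′ to 3′ from 250 bases before the annotated start to 50 after it, with every CpG dinucleotide in capitals.

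Cox7a1, chr7:30183921-30184220, plus strand: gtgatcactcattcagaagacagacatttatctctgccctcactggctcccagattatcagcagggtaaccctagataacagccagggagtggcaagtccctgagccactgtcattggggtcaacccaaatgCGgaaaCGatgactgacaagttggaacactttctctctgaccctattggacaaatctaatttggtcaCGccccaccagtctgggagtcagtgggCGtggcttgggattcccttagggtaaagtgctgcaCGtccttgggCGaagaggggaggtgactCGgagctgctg

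Cox7a2, chr9:79759804-79760103, minus strand: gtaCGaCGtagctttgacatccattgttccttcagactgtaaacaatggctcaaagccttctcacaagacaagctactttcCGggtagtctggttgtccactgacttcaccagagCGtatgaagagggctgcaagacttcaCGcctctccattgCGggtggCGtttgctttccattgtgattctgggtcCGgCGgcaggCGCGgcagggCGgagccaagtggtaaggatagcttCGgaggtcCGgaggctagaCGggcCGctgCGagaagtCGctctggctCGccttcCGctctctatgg

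Cox8b, chr7:140900397-140900696, minus strand: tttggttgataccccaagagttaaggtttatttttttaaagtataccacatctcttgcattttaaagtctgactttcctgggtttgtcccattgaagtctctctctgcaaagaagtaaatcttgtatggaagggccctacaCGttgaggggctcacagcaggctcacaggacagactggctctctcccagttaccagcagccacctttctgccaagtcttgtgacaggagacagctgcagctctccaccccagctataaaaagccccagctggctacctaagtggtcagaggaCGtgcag

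Cox8a, chr19:7217567-7217866, minus strand: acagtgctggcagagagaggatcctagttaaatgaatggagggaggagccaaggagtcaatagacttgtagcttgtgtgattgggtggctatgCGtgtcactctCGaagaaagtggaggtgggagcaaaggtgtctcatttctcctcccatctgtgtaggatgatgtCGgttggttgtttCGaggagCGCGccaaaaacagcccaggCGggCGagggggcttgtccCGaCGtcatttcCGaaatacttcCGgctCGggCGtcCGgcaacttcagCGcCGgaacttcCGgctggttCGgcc

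Cox7b2, chr5:71548156-71548455, minus strand: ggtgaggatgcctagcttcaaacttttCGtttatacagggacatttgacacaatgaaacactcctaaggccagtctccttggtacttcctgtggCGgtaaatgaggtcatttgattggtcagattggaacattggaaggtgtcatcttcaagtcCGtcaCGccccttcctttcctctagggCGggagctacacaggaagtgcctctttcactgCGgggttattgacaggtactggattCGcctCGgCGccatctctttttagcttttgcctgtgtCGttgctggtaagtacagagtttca

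Cox7b, chrX:106015450-106015749, plus strand: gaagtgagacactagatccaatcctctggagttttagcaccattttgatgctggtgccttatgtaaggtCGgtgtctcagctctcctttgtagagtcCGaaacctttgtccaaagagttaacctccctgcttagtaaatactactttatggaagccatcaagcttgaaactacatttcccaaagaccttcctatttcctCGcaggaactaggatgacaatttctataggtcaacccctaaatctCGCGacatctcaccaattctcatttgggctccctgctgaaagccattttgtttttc

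Cox7a1, the muscle form, held 7 CpG dinucleotides in its window, a ratio of observed to expected CpG of 0.333, against 20 and a ratio of 0.833 in Cox7a2. Cox8b, also a muscle form, held 2, a ratio of 0.115, the lowest among the 76 respiratory chain genes with a window in the table, against 19 and a ratio of 0.842 in Cox8a. The third pair did not follow this order. Cox7b2, the testis form, held 10, a ratio of 0.564, against 5 and a ratio of 0.368 in Cox7b. A further pair with windows, whose sequences are not shown, did follow it. Cox6b2, another testis form, held 10, a ratio of 0.4315, against 17 and a ratio of 0.807 in Cox6b1.

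Across the chain, 58 of 76 windows (76.3%) were CpG-rich, defined as a ratio of at least 0.6 with at least 50% G and C, against 47.5% of the windows of 16524 coding genes and 76.3% of those of all marked coding genes. None of the 4 tissue-restricted isoforms with a window was CpG-rich. Motifs were sought in every window of a gene, so genes with more annotated starts had more chances of a match. The motif known for NRF1, a factor that regulates many respiratory chain genes, is GCGCA, any 1 base, then GCGC, on either strand. It was present in 19 genes (25%), against 7.44% of all coding genes with a window and 13.9% of the marked ones. The core motif of the ETS family, to which the regulator GABP belongs, is CCGGAAG on either strand. It was present in 18 genes (23.7%), against 13.4% of all coding genes with a window and 24.6% of the marked ones. At least 1 of these motifs was present in 33 of 76 genes (43.4%), against 19.2% of all coding genes with a window and 35.2% of the marked ones. None of the 4 tissue-restricted isoforms held either motif, and neither did the ubiquitous Cox7a2 and Cox7b. So few genes cannot be set against the background of 19.2%. A match describes letters in a window and is not a binding site.

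Most of the chain carried the mark. Of the 93 genes, 81 (87.1%) were marked, against a background of 37.2% of all coding genes, and 55 (59.1%) had at least 50% of their body covered in each replicate, against 19.3%. The median covered share was 57.9% in replicate 1 and 58.4% in replicate 2, while the median over all coding genes was 0 in both. Peaks were absent from the body in both replicates in 5 respiratory chain genes, against 50.1% of coding genes, and all 5 were tissue-restricted isoforms of complex IV. Replicate 1 had 107779 peaks over 139 Mb and replicate 2 had 98185 over 127 Mb. Replicate 1 gave the higher share in 62 of the genes and replicate 2 in 26, with a median difference of 4.30 percentage points. Marker genes of embryonic stem cells were marked in 8 of 8 cases, among them Pou5f1 and Nanog, and those of fibroblasts, which serve as feeder cells, had no covered base in 8 of 8. In a population of cells, fewer marked cells and less of the mark per cell cannot be told apart.

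**Figure D1:**
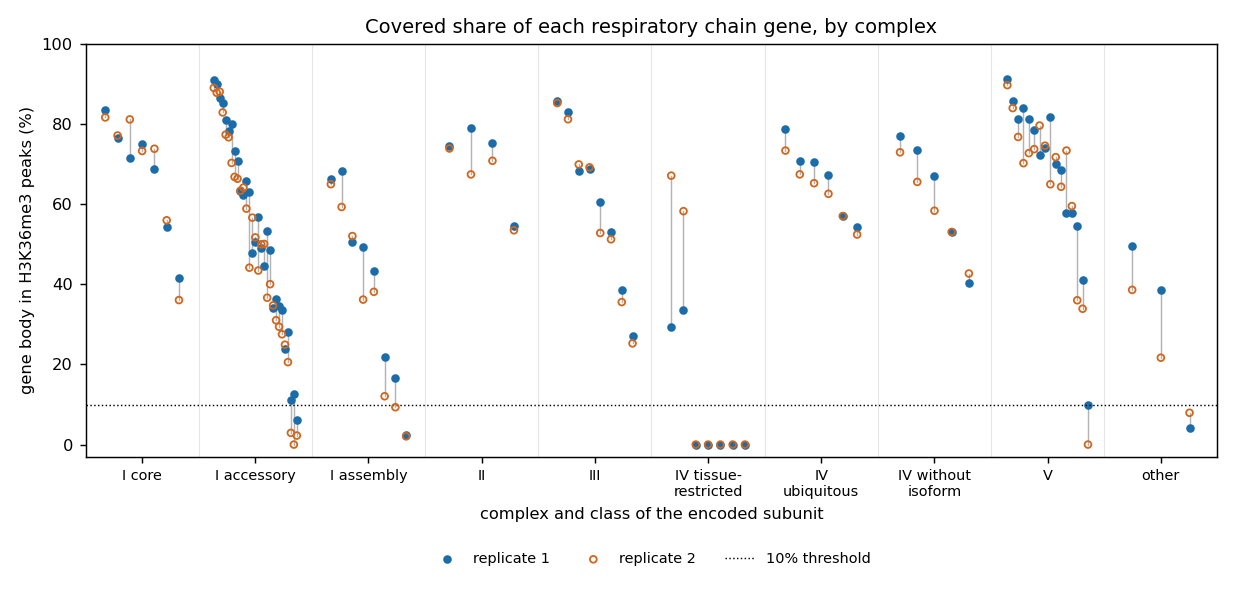
Covered share of the gene body (y axis, percent of bases in H3K36me3 peaks) for each of the 93 respiratory chain genes, grouped by complex and class (x axis), with replicate 1 as filled and replicate 2 as open points joined by a line; the dotted line is the 10% threshold. Genes of complexes II and III all lie above 25% in both replicates, while 5 of the 7 tissue-restricted complex IV isoforms lie at 0.

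In each of 3 length classes the proportion marked in the chain was above that of coding genes of like length. The chain's genes are short, with a median body of 7.38 kb against 17.4 kb for all coding genes. Below 5 kb, 27 of 31 were marked against 22.6% of coding genes of that length. From 5 to 20 kb it was 44 of 48 against 41.7%, and at 20 kb or more 10 of 14 against 39.8%.

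Complex I, the NADH dehydrogenase and the largest of the complexes, had 39 of 44 genes marked, with a median share of 53.8% in replicate 1 and 51.9% in replicate 2. The 7 nuclear core subunits, which carry the flavin and the iron-sulfur clusters, were all marked, with medians of 71.5% and 73.9%. Among the accessory subunits 26 of 29 were marked (medians 53.3% and 50.1%), and among the assembly factors, which build the complex without staying in it, 6 of 8 (medians 46.3% and 37.2%). These are counts over named genes, which are not replicates, and no test was made between the classes.

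Within the core, Ndufs1, the largest iron-sulfur subunit, had 83.6% and 81.7% of its 33.2 kb covered in replicates 1 and 2. Ndufv1, which binds NADH and the flavin, had 76.5% and 77.2%, and Ndufs7 had 75.0% and 73.3%. All covered bases of Ndufv1 lay in peaks that also reach another coding gene. The next gene downstream, the opposite-strand Doc2g, lay at 378 bp and was 55.2% and 58.3% covered. Ndufs3 had 71.5% and 81.2%, so it was the higher in replicate 2, and Ndufs8 likewise had 68.9% and 73.9%. The lowest of the core was Ndufv2, with 41.6% and 36.1% (38.8% ± 3.90, SD, n = 2). All 7 core genes thus stood well above the threshold in both replicates.

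Among the accessory subunits the highest shares belonged to Ndufa10 (91.1% and 89.0%, chr1:92439010-92473860), Ndufa7 (90.1% and 87.8%), Ndufs6 (86.5% and 88.1%) and Ndufab1, the mitochondrial acyl carrier protein (85.3% and 82.9%). In Ndufa10 the mark ran over almost all of a 34.9 kb body in 9 peaks in replicate 1 and 12 in replicate 2. The 3 accessory genes that were not marked were Ndufb3, Ndufc2 and Ndufs4. Ndufb3, a small subunit of the membrane arm, had 11.0% in replicate 1 and 2.91% in replicate 2. Ndufc2, also of the membrane arm, had 12.6% in replicate 1 and no covered base in replicate 2 over a body of 7.80 kb. Ndufs4, whose loss causes Leigh syndrome in humans and a similar disease in mice, had 6.11% and 2.24% of a 100.5 kb body, in 12 and 4 peaks scattered along it. Ndufc2 is the one of these whose call rests on replicate 2 having no peak there at all.

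Of the assembly factors, Ndufaf6 had 66.4% and 65.0%, Ndufaf1 had 68.4% and 59.3%, and Ndufaf3 had 50.7% and 52.1%. The covered bases of Ndufaf3 all lay in peaks that also reach another coding gene. Ndufaf8 had 43.3% and 38.1%. The 2 that were not marked were Ndufaf2, with 2.33% and 2.05% of a 155.9 kb body, and Ndufaf5, which modifies an arginine of Ndufs7, with 16.7% and 9.32%. Ndufaf5 was the gene nearest below the threshold, followed by Atp5s (4.24% and 7.94%) and Ndufb3. The nearest above it were Ndufaf7, a methyltransferase, with 21.8% and 12.1%, Ndufa5, an accessory subunit, with 28.2% and 20.6%, and Cox7a2l, with 38.7% and 21.7%.

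Complex II, succinate dehydrogenase, is the only complex of the chain with no subunit from mitochondrial DNA, and its 4 genes were all marked at 50% or more in each replicate. Sdha, the flavoprotein that oxidises succinate, had 74.6% and 73.9% covered, and Sdhb, the iron-sulfur subunit, had 79.0% and 67.4%. The membrane anchors Sdhd and Sdhc had 75.4% and 70.8%, and 54.5% and 53.5%. The 2 replicates differed by 11.5 percentage points in Sdhb and by less than 5 in the other 3.

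Complex III, the cytochrome bc1 complex, had 8 of 8 genes marked (medians 64.5% and 61.0%), not counting Cyc1, which the naming rule leaves out. Uqcrc1 and Uqcrc2, the core proteins, led it with 85.7% and 85.3%, and 83.1% and 81.2%. The small subunits Uqcr11 and Uqcrq had 68.8% and 69.2%, and 68.3% and 69.9%. Uqcr10 had 38.6% and 35.6%. Lowest was Uqcrfs1, the Rieske iron-sulfur protein, with 27.0% and 25.3% of a 5.06 kb body. The order of Uqcrc1, Uqcr10 and Uqcrfs1 was the same in both replicates. The peak with the highest enrichment over any respiratory chain gene in replicate 2 lay over the 3′ part of Uqcrc1 (chr9:108943704-108950721), at 19.8-fold over background as the authors' caller gave it.

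Complex V, the ATP synthase, had 15 of 16 genes marked (medians 73.2% and 72.3%). All 5 genes of the catalytic head and shaft, all 4 of the peripheral stalk and all 3 of the c ring were marked, and 3 of the 4 others of the membrane part. Atp5b, the catalytic beta subunit, had 91.2% and 89.7% covered over chr10:128083273-128090391, and Atp5a1, the alpha subunit, had 85.8% and 84.0%. Atp5b also held the peak with the highest enrichment over any respiratory chain gene in replicate 1, at 16.2-fold over chr10:128084810-128090766. Averaged over the body, with uncovered bases at 0, the fold of Atp5b was 13.5 and 14.8 in replicates 1 and 2. In each replicate this was the highest fold of the chain, ahead of Ndufs6 in replicate 1 (9.55) and Uqcrc1 in replicate 2 (13.4). The genes next by the lower of the replicates were Ndufs6 (9.55 and 9.46), Uqcr11 (8.77 and 10.5), Atp5a1 (8.70 and 12.6) and Ndufa10 (8.11 and 8.73). Folds were taken as each peak set gives them and were not scaled between replicates. This last order, which mixes the replicates, therefore only served to name genes. Within replicate 2, Uqcrc1 and Cox4i1 (12.2) were above Ndufs6, Uqcr11 and Ndufa10. Atp5f1, of the peripheral stalk, had 81.3% and 76.8%, and Atp5g2, a gene of the c ring, had 74.1% and 74.6%.

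The low values in complex V were Atp5d and Atp5k. Atp5d, the delta subunit, had 41.1% and 33.9% over its annotated span, but 30.7% of that span overlaps Cbarp, and over the other bases Atp5d had 59.3% and 48.9%. Atp5k, the small subunit e, had 9.96% in replicate 1 and no covered base in replicate 2. Its 120 covered bases in replicate 1 were the edge of a 3656 bp peak that mostly lay downstream, beyond a gap of 846 bp to the opposite-strand gene Pde6b and into that gene. Atp5k therefore had no peak of its own in either replicate.

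Complex IV, cytochrome c oxidase, had 13 of 18 genes marked, the smallest proportion of the 5 complexes. All 5 unmarked genes were tissue-restricted isoforms, so that without these isoforms 11 of 11 were marked, with medians of 67.3% and 62.6%. The 6 ubiquitous isoforms had at least 50% covered in each replicate, in every case. Cox4i1 led with 78.7% and 73.4%, followed by Cox8a with 70.8% and 67.5%. Cox6b1 had 70.5% and 65.3%, Cox7b had 67.3% and 62.6%, Cox6a1 had 57.1% and 57.0%, and Cox7a2 had 54.4% and 52.4%. Of the complex IV genes outside the isoform pairs, Cox6c had 77.1% and 73.0%. Ndufa4, once assigned to complex I and now to complex IV, had 73.6% and 65.6%. Cox7c was the lowest of the 11 with 40.3% and 42.7%.

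The tissue-restricted forms stood apart from these. Cox4i2 (lung), Cox6a2 (heart and skeletal muscle), and Cox6b2, Cox7b2 and Cox8c (testis) had no covered base in either replicate. Within each replicate the covered share of the restricted form minus that of its partner was -76.1 ± 3.77 percentage points for Cox4i2 and Cox4i1 (SD, n = 2), -57.1 ± 0.021 for Cox6a2 and Cox6a1, and -67.9 ± 3.72 for Cox6b2 and Cox6b1. It was -64.9 ± 3.29 for Cox7b2 and Cox7b, and -69.1 ± 2.35 for Cox8c and Cox8a. Each of these differences was larger than the spread between the replicates. No test was made of these differences, which are descriptions over 2 replicates.

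The uncovered bodies were 0.953 kb in Cox6a2, 1.21 kb in Cox8c, 1.30 kb in Cox6b2, 10.9 kb in Cox4i2 and 105.4 kb in Cox7b2. For the 3 short ones the background is high, since 74.0% of all coding genes under 5 kb had no covered base. Words of 32 bases occurring once in the genome made up 100% of the body of Cox6a2 and of Cox6b2, 99.6% of Cox8c, 94.2% of Cox4i2 and 86.0% of Cox7b2, so repeated sequence covered a minor part of each. Cox6a2 lies wholly inside Itgad, an integrin gene. Peaks lay close to Cox6b2 without entering it: within 500 bp of its annotated end 38.0% and 21.5% of bases were covered, and the next gene downstream, Kmt5c, was 77.2% covered at a distance of 4277 bp.

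Cox7a1 and Cox8b, both forms of heart and skeletal muscle, were marked, but all or most of their covered bases lay in peaks that run on into a neighbouring gene. Cox7a1 (chr7:30184144-30186078) had 29.3% covered in replicate 1 and 67.1% in replicate 2, the widest replicate difference of any marked respiratory chain gene. In replicate 1 its 567 covered bases were the end of a 4266 bp peak (chr7:30185512-30189777, 10.4-fold) that reaches Capns1, the small calpain subunit gene, which lies on the opposite strand, end to end with Cox7a1 across a gap of 857 bp. Capns1 itself had 52.6% and 52.3% covered. In replicate 2 the corresponding peak was 4440 bp wide (chr7:30185070-30189509, 14.7-fold) and held 77.7% of the covered bases of Cox7a1. The remaining covered bases formed a peak of 290 bp (chr7:30184399-30184688, 4.16-fold) that touches no other gene and has no counterpart in replicate 1.

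Cox8b (chr7:140898945-140900446) had 33.6% and 58.3% covered, the second widest replicate difference. All of its covered bases, 505 in replicate 1 and 875 in replicate 2, lay in a single peak per replicate of 2376 and 2938 bp, which continues across 301 bp into Psmd13, a subunit gene of the 19S proteasome on the opposite strand. Psmd13 had 78.7% and 78.5% covered. Of each peak, 21.3% lay in Cox8b in replicate 1 and 29.8% in replicate 2. Only the 3′ side of Cox8b was covered: of 3 equal parts, the 5′ part was uncovered in both replicates and the 3′ part was covered in full in both. Whether the mark on these bases belongs to the isoform gene or to its neighbour cannot be told apart in these peaks.

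**Figure D2:**
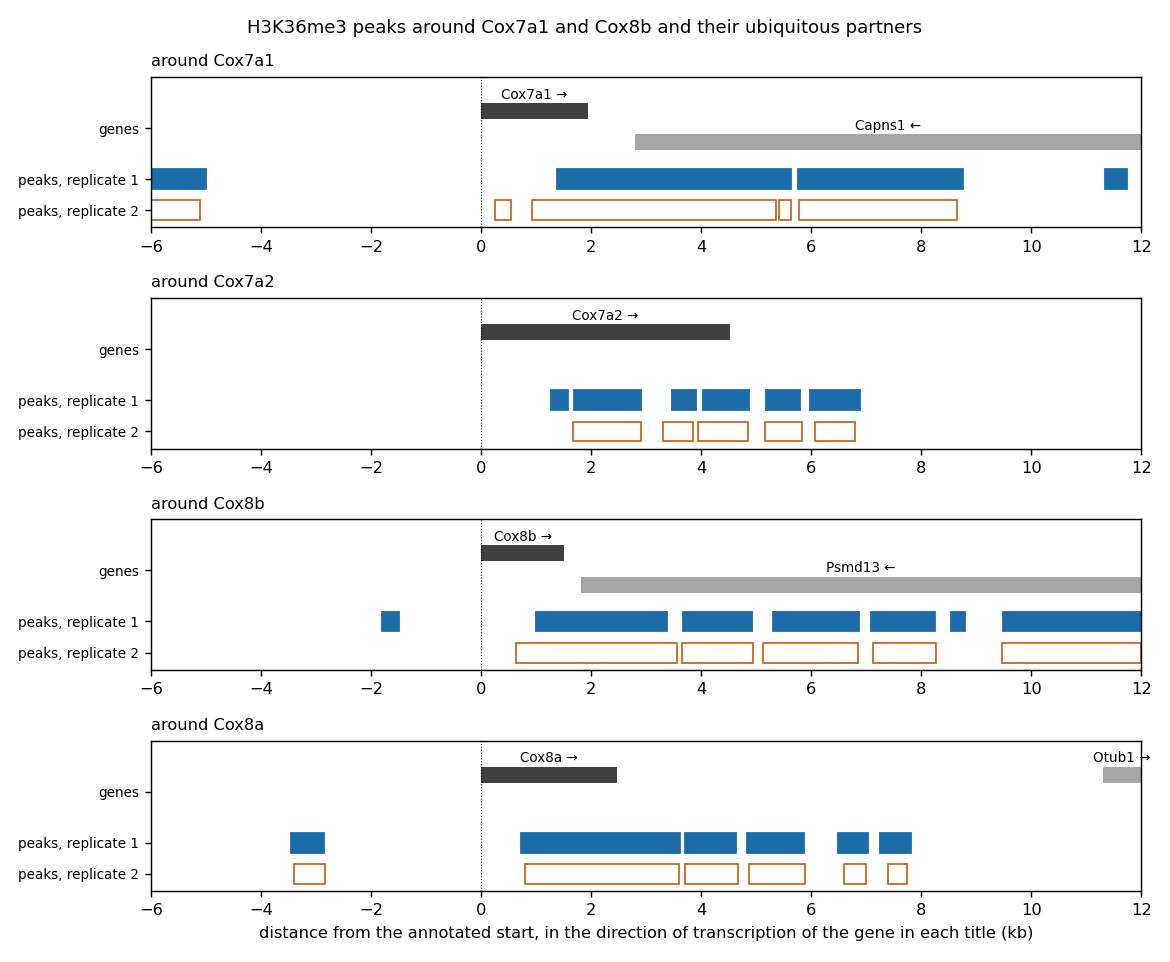
Coding genes (top rows of each panel, with arrows for the strand relative to the gene in the title) and peaks of replicates 1 (filled) and 2 (open) against distance from the annotated start in kb, around Cox7a1, Cox7a2, Cox8b and Cox8a. In each replicate 1 peak over Cox7a1 and 1 over Cox8b continue across gaps of 857 and 301 bp into Capns1 and Psmd13. A further peak of 290 bp over Cox7a1 in replicate 2, and the peaks over Cox7a2 and Cox8a, reach no other coding gene.

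Against their partners, Cox7a1 minus Cox7a2 was -25.1 percentage points in replicate 1 and 14.7 in replicate 2, so the sign differed between the replicates (mean -5.18 ± 28.1, SD, n = 2). Cox8b minus Cox8a was -37.2 and -9.20 (mean -23.2 ± 19.8). Counting only peaks that reach no other coding gene, a rule added after these values were seen, left Cox8b with no covered base and Cox7a1 with none in replicate 1, so that 0 of 7 tissue-restricted isoforms were marked, against 5 of 6 ubiquitous partners. The partner lost was Cox4i1, all of whose peaks lie in or reach the annotated span of the overlapping gene Gm20388, so that none of them could count. Cox6a2 minus Cox6a1 became -20.0 points under this rule, as the larger of the Cox6a1 peaks also reaches Triap1. The share of all coding genes marked under this rule was not obtained, so the 0 of 7 and 5 of 6 have no background. Sharing a peak with another gene was no rarity: all covered bases lay in such peaks for 9 of 81 marked respiratory chain genes (11.1%), against 10.7% of all marked coding genes. The 9 were Cox8b, Cox4i1, Ndufv1, Ndufa2, Ndufa13, Ndufb8, Ndufb9, Ndufb10 and Ndufaf3. For each of them the peaks alone do not tell which gene the mark belongs to.

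**Figure D3:**
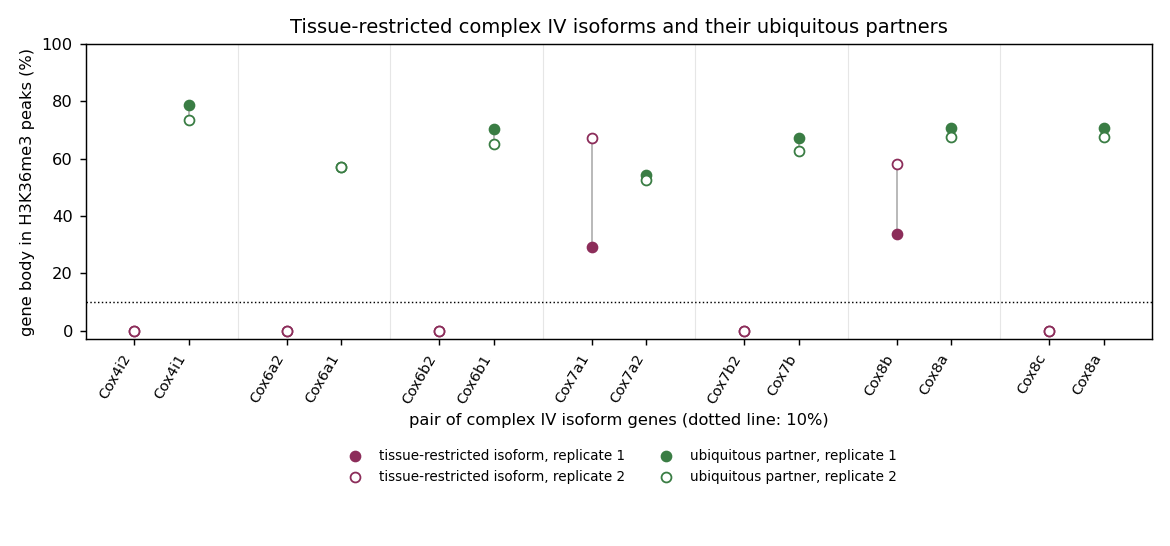
Covered share (y axis, percent of the gene body in peaks) for the 7 pairs, with the tissue-restricted isoform left of its ubiquitous partner and replicates 1 and 2 as filled and open points; Cox8a appears as the partner of both Cox8b and Cox8c. The ubiquitous partners lie between 52.4% and 78.7%, 5 restricted isoforms lie at 0, and Cox7a1 and Cox8b show the widest gaps between replicates.

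Markers of the tissues that use these isoforms are read against the 50.1% of all coding genes with no covered base and the 37.2% marked. Of 11 genes of heart and skeletal muscle, 9 had no covered base, including the myosins Myh6 and Myh7, Ckm and the regulators Myod1 and Myog. Actn2 had 6.61% and 3.79%, and Tnni3, cardiac troponin I, was marked with 21.7% and 45.3%. Of 8 testis genes none was marked and 7 had no covered base. Of 5 lung genes Sftpc, Sftpa1 and Scgb1a1 had no covered base, while Sftpb (20.6% and 19.8%) and Ager (32.1% and 32.7%) were marked, which is near the background.

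Of the 3 other symbols that the naming rule took in, Ndufa4l2, a paralog of Ndufa4, had 49.5% and 38.6% covered over 2.19 kb and overlaps Shmt2, a mitochondrial folate enzyme, over 1.46% of its body. Cox7a2l, which joins complexes III and IV into supercomplexes, had 38.7% and 21.7%. Atp5s had 4.24% and 7.94% and was not marked. The other large differences between replicates among marked genes were 63.1% and 44.2% in Ndufa11, and 54.5% and 36.02% in Atp5l, a membrane subunit of complex V.

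The mark lay toward the 3′ end of the chain's genes. Position is described over marked genes, which the same peaks selected. The 66 marked genes of at least 3 kb were divided in 3 parts of equal length. Of the 5′ part 29.7% ± 3.94 was covered, of the middle part 76.3% ± 2.93 and of the 3′ part 83.9% ± 2.54 (means over genes, SD over 2 replicates). Over all marked coding genes of that length these were 32.7% ± 2.42, 59.5% ± 2.12 and 68.8% ± 1.24. The 3′ part exceeded the 5′ part in both replicates in 62 of 66 genes (93.9%), against 85.0% of all marked coding genes. The exceptions in which the 5′ part was the higher in both replicates were Ndufa12, covered 42.1% and 37.9% in its 5′ part and 0 and 4.91% in its 3′ part, and Ndufaf6.

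Part of the difference from other genes went with length. The 3′ part minus the 5′ part was 54.3 ± 1.40 percentage points in the chain against 36.1 ± 1.18 in all marked genes. Among genes of 3 to 10 kb it was 66.0 ± 0.327 against 54.0 ± 0.149, and among those of 10 kb or more it was 35.0 ± 3.16 against 30.7 ± 1.49. In the 25 chain genes of 10 kb or more the middle part was 75.7% ± 3.69 covered, against 55.8% ± 2.38 in all marked genes of that length.

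**Figure D4:**
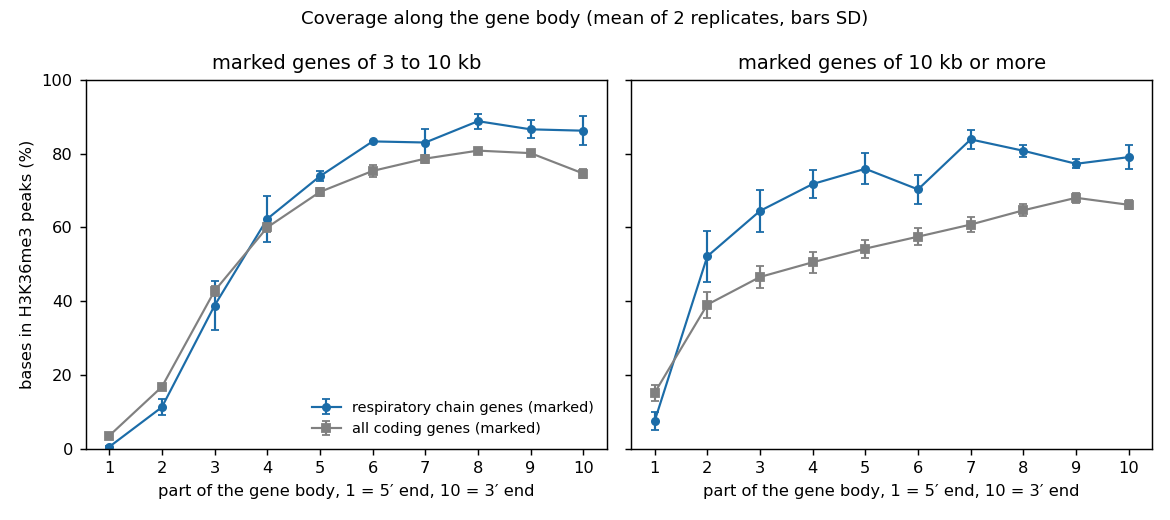
Mean covered share (y axis, percent of bases in peaks) in 10 equal parts of the gene body from the 5′ to the 3′ end (x axis), for marked respiratory chain genes (circles) and all marked coding genes (squares) of 3 to 10 kb (left) and 10 kb or more (right), with bars for the SD over 2 replicates. In the shorter genes the first part is 0.522% covered in the chain and 3.53% in all marked coding genes, and in the longer genes the seventh part is 83.8% in the chain and 60.8% in all marked coding genes.

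Starts were bare, as in most marked coding genes, and ends were spanned more often than in all marked coding genes. Of the 81 marked chain genes, 78 had no covered base within 500 bp of the annotated start in either replicate (96.3%), against 94.1% of all marked coding genes. The first covered base lay at a median of 1532 ± 112 bp from the start, against 2183 ± 157 bp, but the order was not the same in each length class. Among genes of 3 to 10 kb it lay at 1620 ± 312 bp, against 1549 ± 49.5 bp, and among those of 10 kb or more at 1836 ± 374 bp, against 2654 ± 285 bp. Within 500 bp of the annotated end, 85.2% ± 1.52 of bases were covered on average, against 58.5% ± 1.69, and it was 85.5% ± 1.64 against 69.2% ± 1.42 among genes of 3 to 10 kb. A peak spanned the end in 68 of the 81 genes in replicate 1 and 66 in replicate 2, or 84.0% and 81.5%, against 56.2% and 53.2% of all marked genes. Those peaks ran on past the end by a median of 1174 and 1110 bp. In Atp5b the first covered base lay 502 and 617 bp from the start, and the middle and 3′ parts were covered in full in both replicates.

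Exons and introns of the chain were covered to a similar degree. Pooling bases over the 81 marked genes, peaks held 66.2% ± 1.98 of the exonic and 64.9% ± 3.31 of the intronic bases, at a ratio of 1.02 ± 0.022, against 64.1% ± 0.960 and 41.6% ± 2.97 and a ratio of 1.55 ± 0.087 in all marked coding genes. Exons were the more covered in both replicates in 38 of 81 genes (46.9%), against 67.2%. Among genes of 3 to 10 kb the ratio was 0.979 ± 0.0090 in the chain and 1.12 ± 0.027 in all marked genes. Within the 3′ part alone, a view added after these values were seen, it was 1.09 ± 0.0091 against 1.29 ± 0.038 over all lengths and 1.08 ± 0.0063 against 1.28 ± 0.037 in genes of 10 kb or more. The order turned only in the 3′ part of genes of 3 to 10 kb, with 1.07 ± 0.0077 in the chain and 0.974 ± 0.010 in all marked genes. Words of 32 bases that occur once in the genome made up on average 91.2% of exonic and 94.6% of intronic words in the marked chain genes, against 94.5% and 93.1% in all marked coding genes, and their part in these ratios was not tested.

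Genes that belong to the chain or serve it without being in the list by name were mostly marked too. These were 47 other chain and assembly genes, which besides cytochrome c and assembly factors include Cyc1, Lrpprc and Taco1. Of the 47, 37 were marked (78.7%), against 37.2% of all coding genes, with medians of 50.2% and 45.4%. Cycs, the somatic cytochrome c, had 44.3% and 37.9% covered, whereas Cyct, the testis form, had no covered base, and Cyc1, the cytochrome of complex III, had 51.1% and 51.7%. The highest was Sco1, a copper chaperone of complex IV, with 90.0% and 88.3%. Among the 10 that were not marked, Coa3, Higd2a and Sdhaf3 also had no covered base, and the first 2 are short, at 1.15 and 0.952 kb.

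Of 12 regulators of mitochondrial biogenesis, whose median length is 28.4 kb, 10 were marked, against 39.8% of coding genes of 20 kb or more. Tfam, Tfb2m, Polrmt and Esrra are shorter, and the background for genes of 5 to 20 kb was 41.7%. Polg, the mitochondrial DNA polymerase, had 91.0% and 93.2% covered, Polrmt, the mitochondrial RNA polymerase, 85.5% and 87.7%, and Gabpa 82.9% and 81.4%. The transcription factors Tfam and Tfb2m had 78.8% and 72.3%, and 79.7% and 68.4%. Nrf1 had 51.5% and 48.5%, Pprc1 50.5% and 47.1%, and Esrra 49.9% and 41.9%. Gabpb1 had 39.6% and 29.2%, and Tfb1m 31.3% and 28.3%. The 2 that were not marked were the coactivators Ppargc1a, with no peak in either replicate, and Ppargc1b, with 3.15% and 7.55%. The third gene of that family, Pprc1, was thus the only member of it that was marked.

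The chain, with its tissue-restricted isoforms included, was also set beside sets of ribosomal protein and proteasome subunit genes. The proportion marked was 87.1% in the chain, against 88.5% of 78 mitochondrial ribosomal protein genes, 89.1% of 92 cytoplasmic ribosomal protein genes and 84.0% of 50 proteasome subunit genes. The median covered share was 57.9% and 58.4% in the chain, against 62.8% and 59.6% in mitochondrial ribosomal, 79.1% and 81.1% in cytoplasmic ribosomal and 72.1% and 67.0% in proteasome genes. These sets differ in gene length, and no test was made between them.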

How the data were processed

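H3K36me3 ChIP-seq of E14TG2a.4 cells was analysed from peak sets on mm10, 1 set per replicate, that per the deposited file lists are narrow peaks supported by pseudoreplicates (random divisions of a library's reads). The authors' deposited sets give each peak a fold over background (a ratio) and p-values and q-values as −log10. The sources used here do not name the aligner, peak caller or depth, so coverage differences between replicates may come from depth, and no counting interval can be given.

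Genes were coding records of GENCODE M21 on chromosomes 1 to 19, X and Y, 1 record per symbol: records with their own basic transcript were preferred to readthrough records, then the longest, which left out 27. Exons were merged over transcripts. Covered shares count every base of the body that lies in a peak and are given per replicate or as mean ± SD over 2 replicates. Length classes, 3 equal parts, windows of 500 bp and exonic against intronic bases used the same peaks. Uniqueness is the share of 32-base words found once in the genome on either strand. Promoter windows of 300 bases came from RefSeq (GRCm38.p6). Of the 93 members 76 matched, Atp5f1 and Atp5s through a synonym. The furthest 5′ window of a gene was used for its composition, and motifs were sought in all of its windows. Members for which no window was used include Ndufs1, Ndufa2, Ndufb9, Ndufaf6, Sdhc, Uqcrb, Uqcrc2, Uqcrq, Cox4i1, Cox6c, Cox4i2, Cox6a2, Cox8c, Atp5a1, Atp5mpl and Ndufa4l2.

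The labels give 1 group, so no test was made. Members, lists and classes were chosen with earlier results of these data known. Named were all members of the isoform pairs, all unmarked members, up to 4 highest and 2 lowest per class, the 5 with the largest replicate difference, the 5 with the highest fold, those next to 10%, and all regulators. A gene that this rule selects is not reported here. Further genes were chosen for naming with their values in view. The alternatives included other peak sets, a stricter q, 1 replicate left out, other thresholds, bodies and gene sets. The procedures were tested on simulated peaks. Python 3.11.15, NumPy 2.4.6 and matplotlib 3.10.9 were used.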

Additional observations from a re-analysis of the deposited data

How the results depend on the processing

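The replicates form 1 group and no test was made. Of 154 values recomputed for the main results under settings other than leaving out a replicate, 124 stayed within 1.5 times the count or within 1 SD of the replicates. With 2 replicates, leaving out either cannot move a mean over a fixed set of genes by more than 1 SD. The 3′ minus 5′ difference and the ratio of exons to introns moved further without replicate 2, where the set of marked genes also changed. The median covered share of the 93 genes, 58.1%, was 62.1% with the unthresholded sets, 57.5% with −log10 q of at least 5, 62.7% with the peaks found in both replicates, 66.5% with the pooled set, 60.01% over the longest basic transcript, 57.6% in the 67 genes overlapping no other and 65.4% in genes of at least 3 kb. For complex I, 52.9%, these were 57.7% (unthresholded), 51.3% (stricter q), 59.3% (both replicates), 58.8% (pooled) and 45.4% in 28 genes overlapping no other. With the peaks found in both replicates the median was 78.1% in complex II and 74.3% in complex V, and with the pooled set it was 77.3% in complex II, 65.9% in III, 59.0% in IV and 74.3% in V, while over the longest basic transcript complex V had 73.8%. At a threshold of 50%, 22 of 44 complex I genes, 0 of 7 tissue-restricted isoforms, 21 of 47 other chain and assembly genes and 5 of 12 regulators were marked. The background at that threshold was 19.3% of all coding genes and 12.2% of those under 5 kb. With only peaks that reach no other coding gene, 0 tissue-restricted isoforms were marked, and no background was obtained for that rule. The 3′ minus 5′ difference was 52.5 points (unthresholded), 50.9 (both replicates), 49.9 (pooled) and 35.0 (genes of at least 10 kb), and 51.3 to 55.2 with 1 replicate left out. The ratio of exons to introns was 1.06 in genes overlapping no other, 1.09 in the 3′ part, and 1.04 to 1.05 with 1 replicate left out. The number of marked genes, 81, was 81 to 84 with 1 replicate left out and 80 to 85 over the other peak sets. It was 68 with only peaks that reach no other coding gene, a count that likewise has no background. Cox7a1 minus Cox7a2 was -25.1 to 14.7 points with 1 replicate left out, positive without replicate 1, and 7.31 in the pooled set. With the longest record of Atp5o, a readthrough of 242.6 kb covered 21.9% and 15.5%, that gene stayed marked. Depth is unknown, so its part in low shares could not be examined, and the cells are of another strain than the reference genome. The causes of these changes were not tested, beyond the gene sets that each alternative itself changes.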
